A study of Rattus norvegicus with 16 samples.

Results

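The 4 genes described here, Atp1b1, Atp1b2, Fxyd1 and Fxyd7, encode 2 beta subunits of the sodium pump and 2 of its small FXYD regulators, and they are 4 of the 10411 genes that the array's annotation names. They were chosen by symbol because their values on these same arrays had been seen to differ between hippocampal fields. Their region and time values are therefore given as a description, and no p-value is attached to them. Together they have 5 of the 15866 probe sets that remained after control probe sets were removed. Atp1b1 has 2 probe sets and the others have 1 each. The probe set with the highest mean stands for Atp1b1 and is called its leading probe set.

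RNA of 2 hippocampal fields, CA1 and CA3, taken from rat brain slices in organotypic culture, was measured on 16 Affymetrix arrays. Each of the 8 groups is 1 field at 1 time label, with 2 arrays labelled as biological replicates 1 and 2. The labels are T0 and T30m, T3h or T12h, the latter taken to mean 30 min, 3 h or 12 h. The series is titled as a time-dependent response to oxidative stress. The sources used here do not give the stressor, its dose, the meaning of T0, the rats' strain, age or genotype, or how many slices or animals went into a sample, so p-values measure only the spread between these samples. All groups are cultured tissue from which a field was taken, and each sample holds all cell types of that field. With such samples, fewer cells of a type and less RNA per cell cannot be told apart.

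The sodium pump, or Na,K-ATPase, carries sodium out of the cell and potassium in at the cost of ATP, which keeps up the ion gradients that neurons fire on and that astrocytes use to clear glutamate and potassium. Its alpha subunit does the transport, and its beta subunit brings alpha to the membrane and completes the enzyme. FXYD proteins are short single-pass membrane proteins, named after a conserved motif of 4 residues, that bind the pump and adjust its affinity for ions. In brain, Atp1b1 is the main neuronal beta subunit, Atp1b2 is an astrocyte beta subunit and adhesion molecule also known as AMOG, Fxyd1 is phospholemman, and Fxyd7 is a brain FXYD protein found in neurons and glia.

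Several array-wide measures differed between replicate numbers and bear on the values below. The log2 level of the spiked-in control transcripts lay at 4.26 to 4.51 on 4 arrays, both fields of replicate 2 at 30 min and at 12 h, and at 5.36 to 6.85 on the other 12. The GAPDH 3′ minus 5′ difference, which grows as fewer complete transcripts are labelled, was 3.93 on both replicate 2 arrays of 3 h and 1.29 to 3.08 on the other 14. It was larger on replicate 2 than on replicate 1 in 8 of 8 groups. It was also larger in CA1 than in CA3, by 0.32 on average in each replicate, in 4 of 4 pairs of replicate 1 and 3 of 4 of replicate 2. Gfap, the astrocyte filament gene, was bright on all arrays (11.87 to 13.21), as was the oligodendrocyte gene Mbp (9.27 to 12.34). The neuronal genes Snap25 (5.06 to 10.97) and Stmn2 (5.76 to 10.82) ranged from below the array medians (5.81 to 5.94) to bright. The choroid plexus gene Ttr lay between 4.75 and 6.83. Arrays of the same group correlated at 0.911 to 0.969 over probe sets.

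The members sat at very different places in the signal range. Both probe sets of Atp1b1 were among the brightest of the array, with mean log2 values of 10.65 and 10.12, above 98.8% and 98.0% of all probe sets. Fxyd1 averaged 7.79, above 81.5%, and Fxyd7 averaged 5.9, above 49.7%. Atp1b2 averaged 4.28, above 19.1%, in the dim range where RMA (the background correction and scaling behind these values) compresses differences. Signals of different probe sets do not rank transcript abundance.

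Of the members, Atp1b2 and Fxyd1 have an entry among the RefSeq promoters used. The Fxyd1 promoter is shown because Fxyd1 was higher in CA1 in all pairs. It runs from upstream of the gene's start to shortly after it (assembly GRCr8, chr1:95418531-95418830, minus strand, 5′ to 3′). The 6 capitals mark a GC box, the letters GGGCGG on either strand.

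Fxyd1 promoter: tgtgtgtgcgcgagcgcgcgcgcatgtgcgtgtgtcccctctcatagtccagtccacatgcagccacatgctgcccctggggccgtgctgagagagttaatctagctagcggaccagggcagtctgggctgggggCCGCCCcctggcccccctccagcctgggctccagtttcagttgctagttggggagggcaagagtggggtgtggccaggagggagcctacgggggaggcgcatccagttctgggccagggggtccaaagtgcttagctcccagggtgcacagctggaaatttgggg

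The GC box occurs once in this window, and 33.1% of the 33469 promoters of the same length hold at least 1. On neither strand does the window hold TATAAA (in 14.2% of promoters), CCAAT (37.5%), the AP-1 letters TGANTCA (7.3%) or the antioxidant response element core TGANNNNGC (40.5%). TGANTCA and TGANNNNGC can overlap. A match or its lack says only which letters stand in the window. On chromosome 1 of that assembly, protein-coding genes follow each other in the order Fxyd5, Fxyd7, Fxyd1, Lgi4 and Fxyd3, so Fxyd7 and Fxyd1 are direct neighbours.

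Among the beta subunits, Atp1b1 was lower in CA1 than in CA3 in each of the 8 pairs (arrays of both fields with 1 time and 1 replicate number in common), by a small margin in most. At T0 its leading probe set (log2 level) read 10.04 and 10.32 in CA1 (replicates 1 and 2) and 10.99 and 10.34 in CA3. At 30 min it read 9.9 and 11.31 in CA1 and 10.05 and 11.61 in CA3. The 2 replicates of a field thus lay farther apart at 30 min than the 2 fields did.

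At 3 h the Atp1b1 values were 9.8 and 10.52 in CA1 and 9.92 and 10.91 in CA3. At 12 h they were 10.7 and 11.24 in CA1 and 10.87 and 11.93 in CA3. The ranges of the fields overlapped at each time except T0, where the higher CA1 array (10.32) and the lower CA3 array (10.34) nearly met. The array with the highest value was replicate 2 of CA3 at 12 h, and that with the lowest was replicate 1 of CA1 at 3 h.

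The 8 CA1 minus CA3 differences of Atp1b1 ran from −0.95 to −0.02, with a mean of −0.35 ± 0.32 (SD, n = 8 pairs), a level 1.27-fold higher in CA3. The moderated SE of this difference was 0.31 in the fit of all 16 arrays and 0.12 in the fit of the pair differences. The mean was −0.35 in the pairs of replicate 1 and −0.35 in those of replicate 2. The pair at T0, replicate 1, lay farthest from 0.

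The second probe set of Atp1b1 did not show the same steadiness. Its CA1 values in replicates 1 and 2 were 9.31 and 9.29 at T0, 10.04 and 10.98 at 30 min, 9.15 and 10.21 at 3 h, and 10.82 and 10.25 at 12 h. Its CA3 values were 10.41 and 9.53 at T0, 9.07 and 10.75 at 30 min, 9.14 and 10.65 at 3 h, and 11.02 and 11.36 at 12 h. The fields did not overlap at T0 and 12 h, where CA3 was higher, and overlapped at 30 min and 3 h.

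For this second probe set CA1 was lower in 5 of 8 pairs, and the mean difference was −0.23 ± 0.68 (SD, n = 8), with extremes of −1.11 and 0.97. The leading probe set minus the second gave −0.15 to 1.02 on the 16 arrays, with a median of 0.61. The lower value in CA1 in all pairs is thus a property of 1 of the 2 probe sets.

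Atp1b2, the other beta subunit, gave dim and nearly flat values. In CA1 it read 4.24 and 4.16 at T0, 4.27 and 4.36 at 30 min, 4.37 and 4.51 at 3 h, and 4.28 and 4.29 at 12 h. In CA3 it read 4.44 and 4.15, 4.54 and 4.23, 4.09 and 4.26, and 4.25 and 4.0 at the same times. At 3 h and 12 h both CA1 arrays lay above both CA3 arrays, and at T0 and 30 min the fields overlapped. Over the pairs CA1 minus CA3 was 0.07 ± 0.21 (SD, n = 8), with CA1 higher in 6 of 8.

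Fxyd1, whose protein restrains the pump until it is phosphorylated, was higher in CA1 in each of the 8 pairs. At T0 it read 8.27 and 7.12 in CA1 (replicates 1 and 2) and 7.37 and 6.7 in CA3. At 30 min it read 8.84 and 8.37 in CA1 and 8.23 and 7.84 in CA3. The CA1 arrays lay above the CA3 arrays without overlap at 30 min, while at T0 replicate 2 of CA1 lay between the CA3 arrays.

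At 3 h Fxyd1 read 9.15 and 7.51 in CA1 and 8.24 and 6.95 in CA3. At 12 h it read 8.4 and 7.53 in CA1 and 7.49 and 6.68 in CA3. The fields overlapped at 3 h, and at 12 h they did not, by a margin of the lower CA1 array (7.53) over the higher CA3 array (7.49). Replicate 1 was above replicate 2 in all 8 groups, by 0.39 to 1.64, so the fields overlapped where arrays of different replicate numbers met.

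The 8 pair differences of Fxyd1 ran from 0.42 to 0.92, with a mean of 0.71 ± 0.2 (SD, n = 8), which is a level 1.64-fold higher in CA1. Its mean was 0.83 over the pairs of replicate 1 and 0.59 over those of replicate 2, with CA1 higher in 4 of 4 pairs of each. The moderated SE was 0.31 in the 16-array fit and 0.1 in the pair fit. No other member with a level well within the signal range had so small an SD over pairs, and the dim Atp1b2 had 0.21.

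Fxyd7 was the most variable of the members. In CA1 it read 5.36 and 5.45 at T0, 5.61 and 5.07 at 30 min, 5.15 and 6.13 at 3 h, and 6.36 and 5.98 at 12 h. In CA3 it read 7.2 and 5.97 at T0, 5.81 and 5.63 at 30 min, 6.76 and 5.5 at 3 h, and 7.33 and 5.14 at 12 h. CA1 lay below CA3 without overlap at T0 and at 30 min, and the fields overlapped at 3 h and at 12 h.

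The pair differences of Fxyd7 were −1.84 and −0.52 at T0, −0.2 and −0.56 at 30 min, −1.61 and 0.63 at 3 h, and −0.97 and 0.84 at 12 h. CA1 was lower in 6 of 8 pairs, with a mean of −0.53 ± 0.96 (SD, n = 8). In replicate 1 the mean was −1.15 and CA1 was lower in each pair, while in replicate 2 it was 0.1 with 2 of 4 pairs higher in CA1. The mean over all pairs was carried by the CA3 arrays of replicate 1 at T0, 3 h and 12 h, which read 6.76 to 7.33, whereas every other array read 6.36 or less. Fxyd7 and its neighbour Fxyd1 thus had mean region differences of opposite sign.

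**Figure D1:**
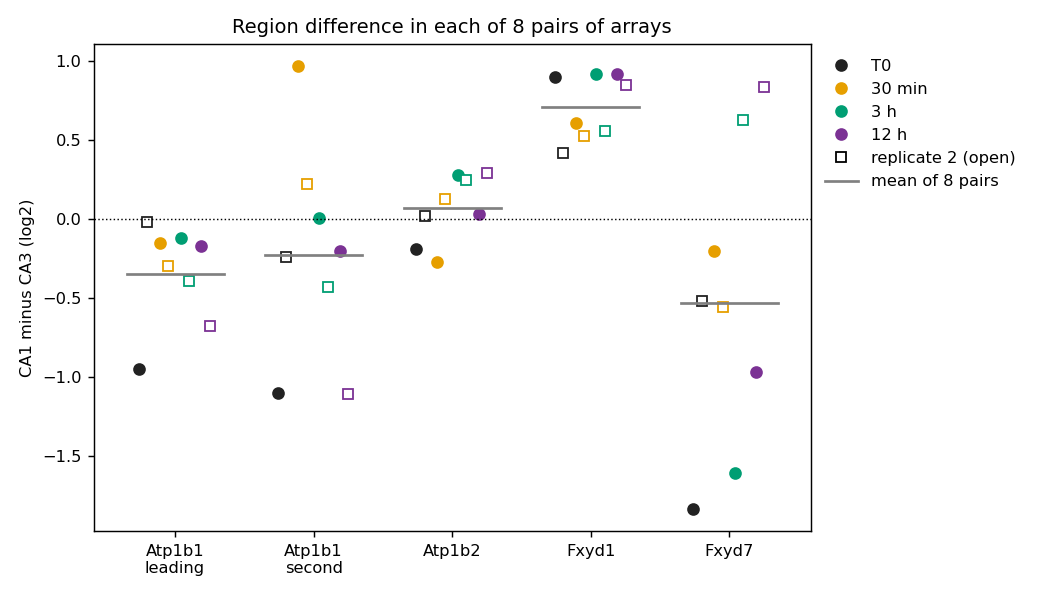
CA1 minus CA3 in log2 units for each of the 8 pairs, with 1 column per probe set, colours for times, filled symbols for replicate 1, open symbols for replicate 2 and a grey line for the mean of 8 pairs. All Fxyd1 points lie between 0.42 and 0.92 and all points of the leading Atp1b1 probe set between −0.95 and −0.02, while Fxyd7 spreads from −1.84 to 0.84.

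Whether the fields differed across all genes was tested with limma, a linear model with moderated variances, and Benjamini-Hochberg adjustment at 0.05. The fit of the 16 arrays called 0 of 15866 probe sets between CA1 and CA3 (0.0%, with 510 at an unadjusted p under 0.05), and so none of the 4 members. The 2 arrays of a pair deviated together from their group means, and the fit of the 8 pair differences called 33 (0.208%), 7 higher and 26 lower in CA1. Fxyd1 was 1 of the 33. Since it was chosen from this contrast, nothing is read from that call.

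The region differences stood beside differences in cell type markers. For astrocyte markers, of which 11 of 12 were measured, the per-array mean ranged from 7.69 to 9.29 in CA1 and from 7.85 to 8.98 in CA3, and the median gene differed by 0.19 with 9 of 11 higher in CA1. Their mean was higher in CA1 in 6 of 8 pairs, with differences of −0.16 to 0.43. The Fxyd1 difference was larger than that of the astrocyte mean in 8 of 8 pairs, by 0.12 to 1.01. Fxyd1 was chosen for its difference and the markers were not, so nothing is read from this. The mean also includes dim genes such as Gjb6 (mean 3.7), and single markers differed by −0.25 (Gjb6) to 0.5 (S100b). Over the 16 arrays Fxyd1 and the astrocyte mean correlated at r = 0.85, a description over arrays that share replicate numbers and fields. Over the 8 pair differences the correlation was 0.32.

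For neuron markers, 13 of 14 were measured, and 12 were lower in CA1, with a median of −0.68. Their mean ranged from 5.89 to 8.98 in CA1 and from 6.39 to 9.46 in CA3, and was lower in CA1 in 7 of 8 pairs. The differences of the leading Atp1b1 probe set were smaller in size than those of the neuron mean in all 8 pairs, and in the 1 pair where the neuron mean was higher in CA1 (30 min, replicate 1, by 1.34) Atp1b1 differed by −0.15. Over the 16 arrays the correlation with the neuron mean was 0.83 for the leading and 0.95 for the second Atp1b1 probe set. With the spike signal it was −0.75 and −0.64, and with the astrocyte mean −0.68 and −0.46. Over the 8 pair differences the correlation with the neuron mean was 0.51 for the leading one. Oligodendrocyte markers, 8 of 11 measured, were all lower in CA1, with a median of −0.56 and a lower mean in 8 of 8 pairs. The GAPDH difference, given above, was larger in CA1 as well. For Fxyd7 the 8 pair differences correlated at −0.79 with those of the astrocyte mean, 0.37 with the neuron mean and −0.4 with the oligodendrocyte mean. The part of these cell types and of RNA quality in the members' differences was not tested.

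**Figure D2:**
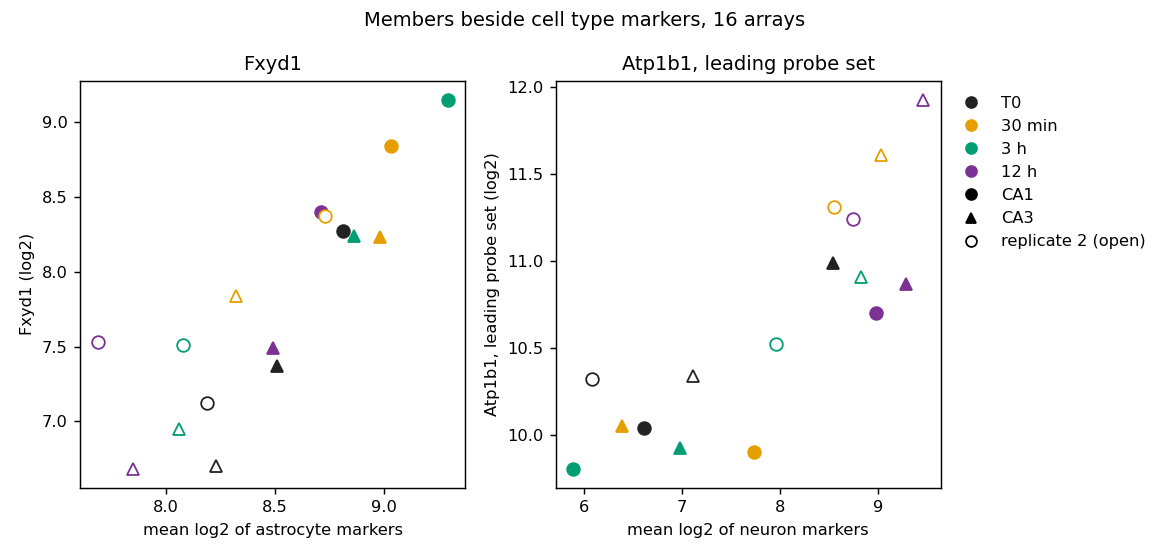
Left, Fxyd1 (log2) against the mean log2 of 11 astrocyte markers, and right, the leading Atp1b1 probe set (log2) against the mean log2 of 13 neuron markers, with 1 point per array, circles for CA1, triangles for CA3, colours for times and open symbols for replicate 2. Fxyd1 is highest (9.15) on the array with the highest astrocyte mean (9.29), and Atp1b1 is highest (11.93) on the array with the highest neuron mean (9.46).

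Against time, Atp1b1 lay higher at 12 h than at T0, and Fxyd1 lay higher at 30 min. The change of Atp1b1 from T0, averaged over the fields, was 0.3 at 30 min, −0.14 at 3 h and 0.76 at 12 h for the leading probe set, each with a moderated SE of 0.44. The second probe set gave 0.58, 0.15 and 1.23. At 12 h both CA1 arrays were above both T0 arrays of CA1 on either probe set, and both CA3 arrays were above theirs on the second probe set only.

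Set against the T0 arrays of the same replicate number, the 30 min and 3 h values of Atp1b1 went in opposite directions in the 2 replicates. The number was not taken to pair T0 with the later times. Changes by replicate number, here and below, thus set arrays against T0 arrays not known to match them. For the leading probe set the change at 30 min was −0.54 in replicate 1 and 1.13 in replicate 2, and at 3 h it was −0.66 and 0.38. At 12 h both were above 0, at 0.27 and 1.26. The low spike signal was on the replicate 2 arrays at 30 min and 12 h. Without these 4 arrays the change was −0.45 at 30 min and 0.36 at 12 h. Without the 2 arrays of high GAPDH difference it was −0.57 at 3 h.

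The neuron marker mean differed from T0 with the same signs as Atp1b1 at these times. Its value was −0.51 at 30 min and 1.56 at 12 h in replicate 1, and 2.19 and 2.51 in replicate 2. At 12 h 12 of the 13 neuron markers lay higher than at T0, with a median of 2.24, and the array means ranged from 8.74 to 9.46 against 6.08 to 8.54 at T0. The part of the spike signal and of the neuronal content in the Atp1b1 values was not tested.

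Fxyd1 at 30 min was above T0 in each field and replicate, by 0.56 and 1.25 in CA1 and by 0.86 and 1.13 in CA3. Both 30 min arrays of a field exceeded both T0 arrays of that field, whereas over the fields together the 4 arrays at 30 min (7.84 to 8.84) overlapped those at T0 (6.7 to 8.27). The mean change was 0.95 ± 0.44 (moderated SE, 4 arrays against 4, with the arrays of a pair taken as independent).

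The Fxyd1 change from T0 averaged 0.59 at 3 h, where it was 0.88 in replicate 1 and 0.32 in replicate 2, and 0.16 at 12 h, each with an SE of 0.44. At 30 min it was 0.71 and 1.2, so the order of 30 min and 3 h differed between the replicates. Without the 2 arrays of high GAPDH difference the 3 h value was 1.33, and without the low-spike arrays the 12 h value was 0.58. The astrocyte marker mean differed from T0 by 0.34 and 0.31 at 30 min in replicates 1 and 2, in the same direction as Fxyd1 and by less, and by 0.41 and −0.14 at 3 h. The part of astrocyte content in these changes was not tested.

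The mean changes of Fxyd7 and Atp1b2 from T0 were not the same in CA1 and CA3. The difference in change between the fields had an SE of 0.96 for Fxyd7 and 0.25 for the dim Atp1b2. No probe set was called for such a difference (below). The Fxyd7 change averaged −0.46, −0.11 and 0.21 at 30 min, 3 h and 12 h (SE 0.48 each). In CA3 both 30 min arrays lay below both T0 arrays, by 0.86 on average, and in CA1 both 12 h arrays lay above both T0 arrays, by 0.76. Without the low-spike arrays the 12 h average was 0.85. The Atp1b2 change averaged 0.1, 0.06 and −0.04 (SE 0.12 each). In CA1 both arrays of each later time lay above both T0 arrays, by 0.11, 0.24 and 0.08 on average, and in CA3 each later time overlapped T0.

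**Figure D3:**
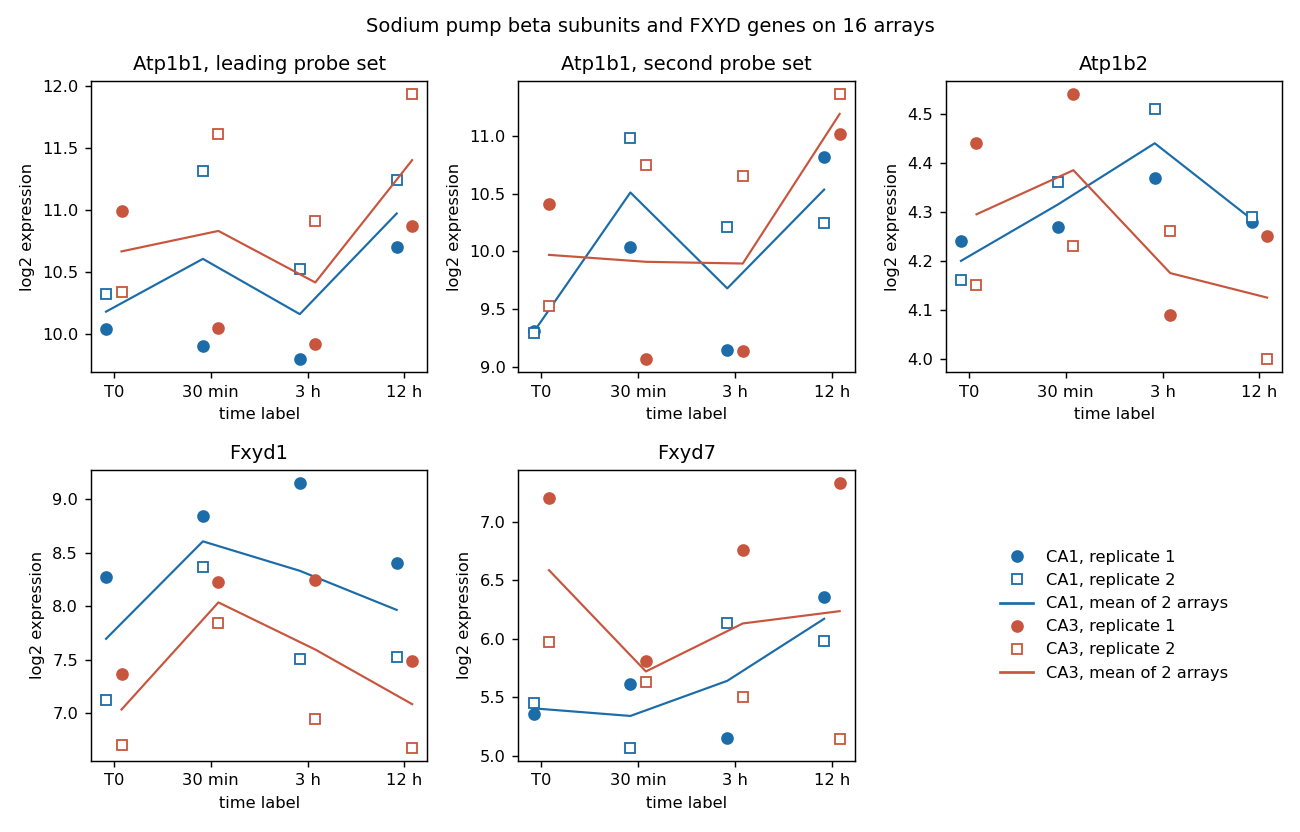
Log2 expression of the 5 probe sets on each of the 16 arrays against the time label, CA1 in blue and CA3 in red, filled circles for replicate 1, open squares for replicate 2 and lines through the means of 2 arrays. In the Fxyd1 panel the CA1 line runs above the CA3 line at all 4 times and peaks at 30 min (8.61 against 8.04), and in the Atp1b1 panels the 12 h means are the highest of each field.

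Ranked by group mean, Fxyd1 went from CA1 at 30 min (8.61) through CA1 at 3 h (8.33), CA3 at 30 min (8.04), CA1 at 12 h (7.97), CA1 at T0 (7.7), CA3 at 3 h (7.59) and CA3 at 12 h (7.09) to CA3 at T0 (7.04). The replicate ranges of each neighbouring pair in this order overlapped. The same held for every neighbouring pair of the leading Atp1b1 probe set, from CA3 at 12 h (11.4) to CA1 at 3 h (10.16). Fxyd7 was highest in CA3 at T0 (6.58), followed by CA3 at 12 h (6.23) and CA1 at 12 h (6.17), whose ranges overlapped.

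Over all genes the 16-array fit called 17 probe sets between 30 min and T0 (0.107%), 29 for 3 h (0.183%) and 328 for 12 h (2.07%), and 0 of the 4 members at any time. This fit takes the 2 arrays of a pair as independent. The limma fit of their means called 0 probe sets at each time (0.0%, with 629, 792 and 1664 at an unadjusted p under 0.05). For the change in CA1 minus that in CA3 the 16-array limma fit called 0 probe sets at each time (0.0%, with 133, 55 and 71 at an unadjusted p under 0.05). The fit of the pair differences also called 0 (595, 281 and 371). The members' own values of this difference at 30 min, 3 h and 12 h were 0.26, 0.23 and 0.06 for Atp1b1 (SE 0.88), −0.09, 0.08 and 0.22 for Fxyd1 (SE 0.89), and 0.8, 0.69 and 1.11 for Fxyd7 (SE 0.96). For Atp1b2 they were 0.02, 0.35 and 0.25 (SE 0.25). These SEs are from the 16-array fit. In the pair fit they were 0.35 for Atp1b1, 0.28 for Fxyd1, 0.78 for Fxyd7 and 0.27 for Atp1b2. Fxyd7 had the largest difference in change at each time, in the direction of a higher change in CA1.

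The other subunits and FXYD genes, 8 of the 11 listed, had no call in either fit of the region difference. Fxyd6, a brain FXYD protein, was 0.48 ± 0.2 higher in CA1 in the pair fit (adjusted p = 0.438, 6 of 8 pairs) and Fxyd2, the kidney gamma subunit, 0.35 ± 0.1 (adjusted p = 0.241, 5 of 8 pairs). Atp1b3, the third beta subunit, differed by 0.08 ± 0.11 (adjusted p = 0.949), Fxyd5, known as dysadherin, by 0.13 ± 0.18 (adjusted p = 0.951), and Fxyd3 by 0.18 ± 0.1 (adjusted p = 0.647). The dim probe sets of Atp1a4, Atp1b4 and Fxyd4 lay between −0.07 and 0.05. The median of the 8 was 0.11, against −0.01 over all probe sets.

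With time, 3 of these genes lay lower at 12 h, on the other side of 0 from Atp1b1, without passing the test. At 12 h against T0 the limma change over 16 arrays was −0.78 ± 0.21 for Atp1b3 (adjusted p = 0.0926), −1.44 ± 0.38 for Fxyd2 (adjusted p = 0.0846) and −1.13 ± 0.33 for Fxyd5 (adjusted p = 0.107). In the limma fit of the pair means the SEs were 0.26, 0.5 and 0.35, and the adjusted p-values 0.407, 0.414 and 0.382. For each gene, all 4 arrays at 12 h lay below all 4 at T0, for Atp1b3 at 7.32 to 7.7 against 7.88 to 8.56. How many of all probe sets separate in this way was not counted, and the arrays of a pair deviate together. Over all 15866 probe sets, 2891 had an unadjusted limma p under 0.05 at 12 h in the 16-array fit.

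For Fxyd2 the 12 h arrays read 4.09 to 4.49 against 5.09 to 6.36 at T0, and for Fxyd5 5.41 to 6.83 against 6.96 to 7.44. The Fxyd2 change was −0.74 in replicate 1 and −2.14 in replicate 2, the Fxyd5 change −0.5 and −1.76, and the Atp1b3 change −1.07 and −0.48. Microglia markers, 11 of 11 measured, lay lower at 12 h for 10 genes, with a median of −1.76 and array means of 5.91 to 7.3 against 7.77 to 8.24 at T0, and their part in these values was not tested. The median of the 8 genes at 12 h was 0.04, against −0.02 over all probe sets. At 30 min and 3 h none of the 8 genes passed, and the largest values were −0.91 ± 0.33 for Fxyd5 at 30 min (adjusted p = 0.511) and −0.78 ± 0.21 for Atp1b3 at 3 h (adjusted p = 0.267).

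**Figure D4:**
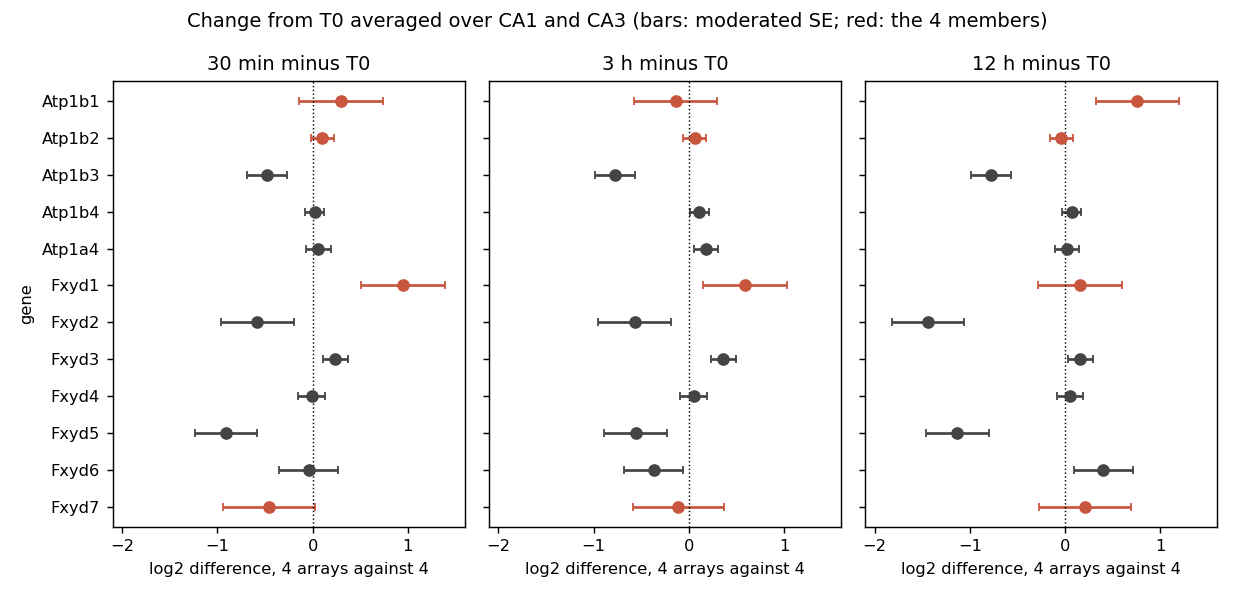
Change from T0 in log2 units, averaged over CA1 and CA3, of the 4 members (red) and the 8 other measured pump subunit and FXYD genes (dark grey) at 30 min, 3 h and 12 h, with moderated standard errors from the 16-array fit (4 arrays against 4). At 12 h Fxyd2 (−1.44), Fxyd5 (−1.13) and Atp1b3 (−0.78) lie left of 0 and Atp1b1 (0.76) right of it, and Fxyd1 has its largest value at 30 min (0.95).

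Among the 11 other P-type pumps, all measured, 1 passed in the pair fit of the region difference. Atp2b3, a plasma membrane calcium pump of neurons, was lower in CA1 by 0.7 ± 0.1 on the log2 scale (−0.7, limma adjusted p = 0.0464 over 8 pairs, lower in 7 of 8), and it did not pass in the 16-array fit, where the SE was 0.42. Its other 2 probe sets are dim, with means of 3.95 and 3.72, and differed by −0.12 and −0.01. The other 10 pumps did not pass, and the median of the 11 was −0.05. None of the 11 passed at any time. The largest change was 1.05 ± 0.4 for Atp2b2 at 12 h (limma adjusted p = 0.198 over 16 arrays and 0.52 for the pair means).

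The pump's gradients drive the sodium-coupled transporters, of which 18 of 20 listed genes were measured and none passed in either region fit. Slc1a1, the neuronal glutamate transporter EAAC1, was nearest, at −0.57 ± 0.09 (adjusted p = 0.0585 in the pair fit, lower in CA1 in 8 of 8 pairs), with −0.45 on its second probe set. Slc8a1, a sodium-calcium exchanger, differed by −0.66 ± 0.17 (adjusted p = 0.193). On the other side of 0, Slc1a3, the astrocyte glutamate transporter GLAST, differed by 0.57 ± 0.15 (adjusted p = 0.19, higher in CA1 in 8 of 8 pairs). The median of the list was −0.05. Over time none passed, with the largest 12 h values at 1.97 ± 0.84 for Slc12a5, the neuronal potassium-chloride cotransporter (adjusted p = 0.244), and 1.67 ± 0.78 for Slc4a10 (adjusted p = 0.291). These are from the 16-array fit, and the limma fit of the pair means gave adjusted p-values of 0.591 and 0.619.

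Of the partners and regulators of the pump, 13 of 15 were measured and none passed in either region fit. Mlc1, an astrocyte membrane protein, was 0.75 ± 0.22 higher in CA1 (adjusted p = 0.238 in the pair fit) and Nkain4, of a family that interacts with the pump, 0.53 ± 0.1 (adjusted p = 0.0907, 7 of 8 pairs). Nkain2 of the same family differed by −0.5 ± 0.1 (adjusted p = 0.0918, lower in 7 of 8 pairs). The median was 0.02. At 12 h the largest values were −1.46 ± 0.64 for Cav1, which encodes caveolin (adjusted p = 0.26), and 1.1 ± 0.4 for Nedd4l, a ubiquitin ligase (adjusted p = 0.181). These 12 h values are from the 16-array fit, and the limma fit of the pair means gave adjusted p-values of 0.577 and 0.491. Over the 4 lists, 50 genes in all, 25 lay above 0 and 25 below in the region difference.

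**Figure D5:**
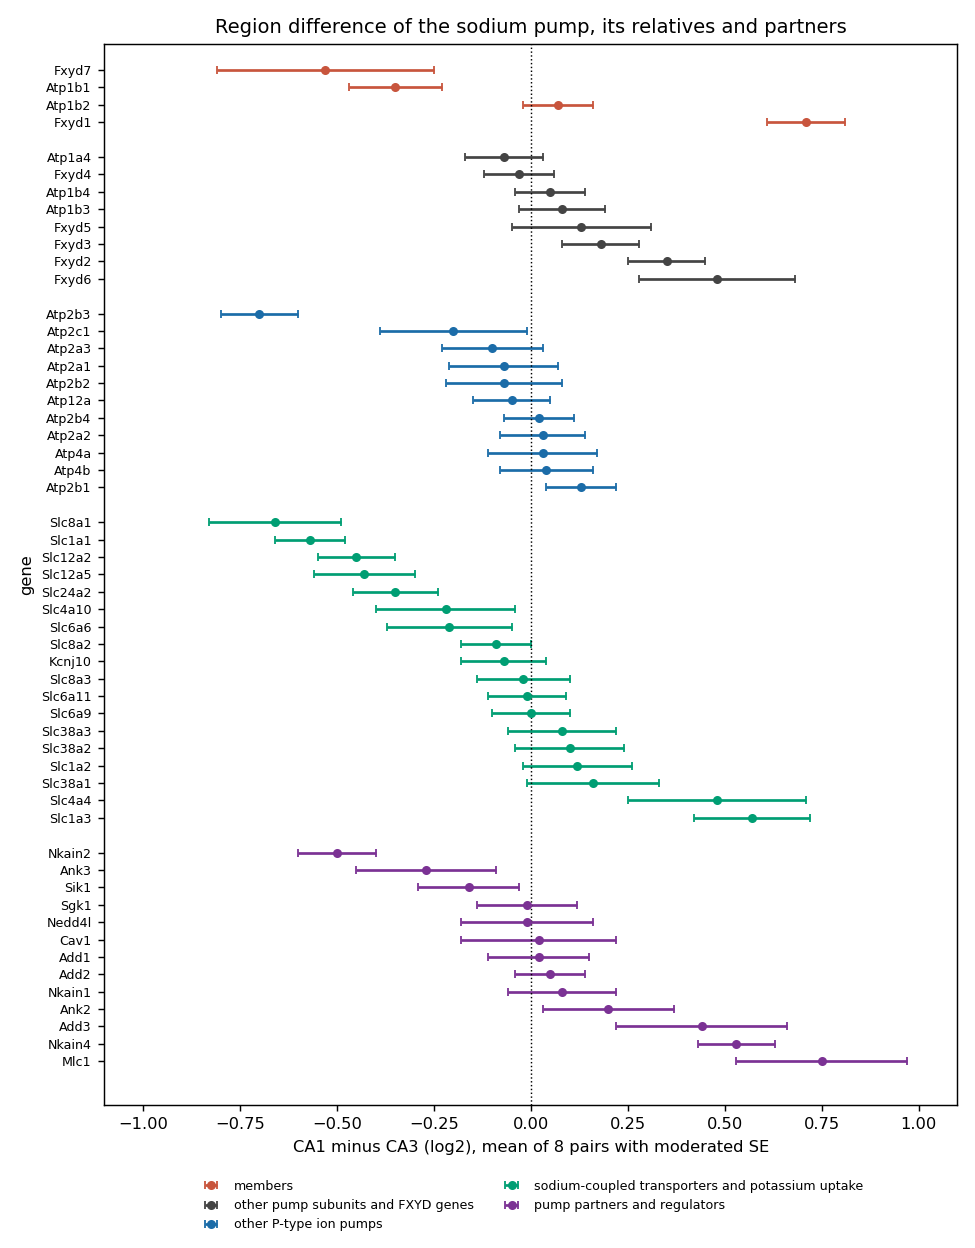
CA1 minus CA3 in log2 units, as the mean of 8 pairs with its moderated standard error from the pair fit, for the 4 members and the 50 measured genes of the 4 other lists, grouped by list and sorted within it. Fxyd1 (0.71) lies far right with Mlc1 (0.75), and Atp2b3 (−0.7) and Slc8a1 (−0.66) lie farthest left.

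The genes most like each member over the 16 arrays were found by Pearson correlation among 6015 genes with a mean of at least 6. The arrays share fields, times and replicate numbers, so these values describe the arrays only. For Fxyd1 they were Slc15a2, a peptide transporter (r = 0.93), S100a13 (0.93) and S100b, an astrocyte calcium-binding protein (0.91). They were higher in CA1 in 8, 7 and 7 of 8 pairs.

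For Atp1b1 the nearest were Oaz2, Nsf, which acts in vesicle fusion, and Susd4, each at r = 0.96 and each lower in CA1 on average (−0.17, −0.29 and −0.46). For Fxyd7 they were Polr3d, an RNA polymerase III subunit (0.85), Elp6 (0.76) and Trmt5 (0.75), and Polr3d was lower in CA1 in all 8 pairs. The dim Atp1b2 reached only 0.7 with Rtn4ip1, 0.67 with Zmat5 and 0.66 with Wdr70. Among the members, Fxyd1 and Atp1b1 correlated at −0.52.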

How the data were processed

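The deposited values are log2 expression, 1 value for each probe set on each array. The authors made them with RMA, per the submitters' processing notes, in a version not given in the sources used here. RMA equalises the arrays' distributions, so values are relative to the other genes of an array, and it compresses dim signals. Per the labels, total RNA was labelled with biotin over 2 cycles, which amplifies RNA. Of 15923 probe sets (values 2.82 to 13.96, array medians 5.81 to 5.94), 57 controls were set aside. The platform annotation named 1 gene for 12783 of the rest, several for 312 and none for 2771, and 12748 matched RefSeq (GRCr8). The probe set with the highest mean stood for a gene.

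Values were fitted with limma 3.58.1 (R 4.3.3): 8 group means over 16 arrays (8 residual degrees of freedom, prior 2.55), without a block. The p-values were adjusted by Benjamini-Hochberg over 15866 probe sets, with a threshold of 0.05. The fits were also run on simulated data with independent noise on each array. That run could not show the effect of arrays that deviate together. Errors called SE are moderated standard errors. Deviations of same-numbered CA1 and CA3 arrays correlated at 0.57 to 0.67 within each of the 4 times, so the replicate number pairs the fields, and the pair differences were fitted too (4 residual degrees of freedom, prior 5.17). The labels say nothing of what the number marks. Python 3.11.15 drew the figures. The number of arrays limits the precision.

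The members and gene lists were chosen with earlier results of these data known. Named were the members, all measured pump subunit and FXYD genes, and of the 3 other lists the genes that passed in either fit, or else those with the largest absolute change, 2 per contrast; Slc1a3, Nkain2 and Slc6a9 were named after their values were seen. Alternatives tried were the replicate block, cyclic loess, a mean of at least 5, an intensity trend, the median of a gene's probe sets, leaving out arrays with low spike or high GAPDH values, and leaving out each array.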

Additional observations from a re-analysis of the deposited data

Results flagged for a closer look

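The outlying values below were found by setting the farthest of the 8 pair differences against Dixon's critical value, which chance passes in about 1 of 20 groups. For Atp1b4 the CA1 minus CA3 difference at 30 min, replicate 2, was −0.23, with the next at 0.03 (ratio 0.667). For Fxyd4 the difference at 12 h, replicate 2, was 0.36, with the next at 0.0 (ratio 0.643). Both probe sets are dim. No pair difference of Atp1b1, Atp1b2, Fxyd1 or Fxyd7 passed this criterion.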

How the results depend on the processing

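The number of pathway genes past the threshold, of 50 outside the members, was 0 in each region, time and interaction contrast of the 16-array fit, and 0 under all but the following alternatives. With the replicate block as pair differences, the region contrast called 1 (Atp2b3). With the replicate block as a covariate at 12 h, 4 passed by limma: Fxyd2 (−1.44, adjusted p = 0.0482), Fxyd5 (−1.13, adjusted p = 0.0459), Slc6a9 (0.66, adjusted p = 0.0492) and Nedd4l (1.1, adjusted p = 0.0224). That fit called 1302 of all 15866 probe sets at 12 h, so 4 of 50 is near the share over all probe sets. Deviations of same-numbered arrays correlated at 0.3 to 0.66 among the later times (12 values), but at −0.24 to 0.31 between T0 and later times, with 5 of 12 values at or under 0.1, so the number was not taken to pair T0 with the later times. The cause of the change in calls was not tested. Leaving out each array in turn, the pathway count stayed between 0 and 0 in every contrast.

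Over all probe sets the count at 30 min, 17 as reported, was 0 with pair means, 49 with the block, 11 with the filter on dim probe sets, 0 without the low-spike arrays and 3 without the arrays of high GAPDH difference. At 3 h it was 29, and 0, 92, 26, 1 and 0 in the same order. At 12 h it was 328, and 0, 1302, 327, 1 and 247. Leaving out 1 array gave 0 to 18, 0 to 51 and 55 to 474.

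Among the members, Atp1b1 was −0.45 at 30 min and 0.36 at 12 h without the low-spike arrays, Fxyd1 was 0.58 and Fxyd7 0.85 at 12 h, Fxyd7 was −0.29 at 30 min, and the Atp1b2 region difference was −0.02. Without the arrays of high GAPDH difference, Fxyd1 was 1.33 and Atp1b1 −0.57 at 3 h, and the Fxyd7 region difference was −0.81. The cause was not tested. Leaving out each array gave region differences of 0.51 to 0.92 for Fxyd1, −0.54 to −0.15 for Atp1b1, −0.8 (without replicate 2 of CA3 at 12 h) to −0.25 (without replicate 1) for Fxyd7, and 0.03 to 0.11 for Atp1b2. For Fxyd1 it gave 0.66 to 1.24 at 30 min, 0.18 (without replicate 1 of CA1 at 3 h) to 1.01 at 3 h and −0.13 to 0.45 at 12 h. For Atp1b1 it gave −0.09 to 0.69, −0.38 to 0.11 and 0.5 to 1.03 at these times, for Fxyd7 −0.77 to −0.16, −0.43 to 0.2 and −0.34 to 0.76, and for Atp1b2 0.02 to 0.18, −0.01 to 0.13 and −0.12 to 0.03. The signs of the region differences of Atp1b1, Fxyd1 and Fxyd7, and of the Fxyd1 change at 30 min and the Atp1b1 change at 12 h, held under each alternative run. The replicate block, the intensity trend and the filter on dim probe sets leave these values unchanged by construction. The median of a gene's probe sets could move only those of Atp1b1. Cyclic loess and leaving out arrays could thus change a sign for each of these genes. None of the alternatives run used 1 replicate number alone, and the Fxyd7 region difference was −1.15 in replicate 1 but 0.1 in replicate 2. Atp1b2 falls under the filter on dim probe sets and has no value there. With 2 arrays a group, the number of arrays limits what can be told apart.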
